A study of Mus musculus with 18 samples.

Results

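The response of differentiated (ED) cells 4 h after 10 Gy of ionizing radiation (IR) was read from 6 of the 18 arrays of the series, 3 of irradiated cells (EDRL) and 3 of unirradiated ED cells (ED), and all genes on these arrays were considered. The ED cells were derived from early passage mouse embryonic stem (ES) cells by growth without leukemia inhibitory factor (LIF). EDRL cells were the same ED cells irradiated with 10 Gy and collected 4 h later, and EDRE cells were collected 15 min after the same dose. Unirradiated ES cells and ES cells 4 h after 10 Gy (ESRL) were used where the cell types were compared. The differentiation was undirected, so ED is not a single defined cell type, and the labels name no transgene or deletion in any group.

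DNA double-strand breaks activate the kinase ATM, which stabilizes p53 by freeing it from the ubiquitin ligase Mdm2. The stabilized p53 is a transcription factor that binds a pair of 10-base sites near its target genes, among them genes for cell cycle arrest, for apoptosis, for metabolism and for its own feedback. Cells with broken DNA also stop before mitosis, and many genes of mitosis carry a short promoter motif called CHR (cell cycle genes homology region), through which the DREAM and MuvB complexes repress them in quiescent and arrested cells. Both responses are known from fibroblasts after IR.

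The results below turn on p53 targets and on genes of mitosis, so promoter letters are shown first, of p53 targets (Ccng1, Gtse1 and Cdkn1a), of 2 of the largest rises that are in no p53 list (1700007K13Rik and Stox2) and of a mitosis gene. RefSeq (GRCm38.p6) gave 32851 promoter windows of 300 bases, 250 before and 50 after the start of transcription. The consensus p53 element was searched on both strands, which read alike, as a pair of 10-base sites with a spacer of up to 13 bases and at most 2 mismatches, none of them at the central C and G of a site. Of all windows 4.09% held such an element, and 0.627% held it with 0 or 1 mismatch. In the elements below, written along the strand of the gene, capitals mark the letters of the sites that match the consensus, and spacers and mismatches are in lower case.
Ccng1 (chr11:40755462-40755481, minus strand): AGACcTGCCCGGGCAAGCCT
1700007K13Rik (chr2:28466285-28466305, minus strand): AGACTTGaTCtGGGCTAGTTT
Gtse1 (chr15:85859945-85859964, plus strand): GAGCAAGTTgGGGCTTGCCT
Stox2 (chr8:47352483-47352502, minus strand): GtACTTGTCCAGACAAGCCg
Cdkn1a (chr17:29090906-29090937, plus strand): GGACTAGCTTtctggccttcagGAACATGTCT

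Counted from the start of transcription, the Ccng1 element spans bases -195 to -176 and that of 1700007K13Rik bases 20 to 40. Ccng1, 1700007K13Rik, Gtse1 and Stox2 rose in the arrays, and Cdkn1a, whose printed sites match at every letter around a spacer of 12 bases, did not pass the test. Only the match with the fewest mismatches is printed for a window. In Cdkn1a the 10 bases directly after the second printed site also form a site, with 1 mismatch. That window therefore holds a pair without a spacer as well, which is not marked above. Of the other genes named below, Bax, Gadd45a and Ppp2ca held an element with 2 mismatches and did not pass. Egfr and Slc5a11 also held one with 2 mismatches, and rose. Of the 12 largest rises only 1700007K13Rik and Stox2 were found with an element, with 1 and 2 mismatches, so these genes are shown for their match. Transcripts that keep the name in the file have no window here. The CHR motif was searched as TTTGAA and, on the other strand, TTCAAA; these letters cannot lie within a p53 site, which has a C and a G at other distances. It stood in 17.9% of all windows and in 13.4% of the 14095 windows of genes tested. Of the 53 windows of mitosis genes tested, 66% held it. The 250 bases before the start of Kif22, a kinesin of the mitotic spindle that fell, are printed with both matches in capitals (chr7:127042421-127042670, minus strand).
Kif22: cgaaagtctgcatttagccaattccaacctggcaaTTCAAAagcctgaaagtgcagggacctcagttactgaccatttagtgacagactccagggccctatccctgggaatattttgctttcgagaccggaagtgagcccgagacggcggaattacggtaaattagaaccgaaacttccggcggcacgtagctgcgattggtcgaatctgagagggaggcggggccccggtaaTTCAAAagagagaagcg
A p53 element stood in 10.3% of the 97 windows of p53 targets tested, in 6.06% of the 33 windows of those that rose (2 windows, of Ccng1 and Gtse1), in 5.46% of the 238 windows of genes counted higher and in 3.68% of the windows of genes tested, so most of the risers had no match in this window. A match describes these letters and is not a bound site.

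Levels below are log2 signals minus each array's own 75th percentile, which is level 0, and changes are EDRL minus ED on the log2 scale. The 6 arrays each had 70.7% to 77.9% of their probes well above background. Arrays of ED correlated with each other at 0.985 to 0.987 over probes, those of EDRL at 0.983 to 0.989, and ED with EDRL at 0.975 to 0.984. The stem cell label was checked in ED: Pou5f1, the gene of the stem cell factor Oct4, had a level of -3.59 ± 0.08 in ED beside 6.69 ± 0.09 in ES (SD, n = 3), and Nanog was at -6.97 ± 0.12 (SD, n = 3) in ED and at 1.88 on the 1 ES array with a usable spot. Sox2, the other core stem cell factor, was still well above background in ED, at 2.32 ± 0.11 (SD, n = 3), beside 4.68 ± 0.01 (SD, n = 3) in ES. Vim and Col1a1, of mesenchymal cells, were at 7.41 ± 0.25 and 7.16 ± 0.14 (SD, n = 3) in ED. The labels do not say whether the 3 samples of a group came from separate cultures, so the p-values measure the spread between these samples, which may be technical. In bulk samples fewer cells of a kind and less RNA per cell cannot be told apart.

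Genes with changes over 2-fold at 4 h were mostly higher in EDRL. Of 23257 genes tested 311 were counted higher (1.34%) and 58 lower (0.249%), with a Benjamini-Hochberg adjusted p under 0.05 in limma and a change over 2-fold. With the adjusted p alone 386 genes rose (1.66%) and 153 fell (0.658%). The median change of all genes tested was -0.0973, and it was 0.0532 when each array was set to its median instead. That scaling moved the split past the adjusted p alone to 509 higher and 59 lower. In a fit of the 6 arrays alone 553 genes were counted higher and 247 lower, but 1418 rose and 2939 fell by the adjusted p alone, so the larger share of rises holds for changes over 2-fold in both fits and turns for the adjusted p alone. Genes counted higher were mostly dim: their median level was -5.16 in ED and -3.24 in EDRL, beside -2.54 and -2.62 for all genes tested. Of the 311, 124 lay in the dimmest of 4 equal groups of genes tested by mean level and 37 in the brightest, while of the 58 lower genes 31 lay in the dimmest group and 2 in the brightest. On all 3 ED arrays 47 of the higher genes were not well above background, and so were 5 of the lower genes on all 3 EDRL arrays. Leaving out ED replicate 1 or 2 or EDRL replicate 1, 2 or 3 reduced the lower count to 22, 28, 35, 15 and 33. By the adjusted p alone 31 to 99 genes fell in fits without 1 of the 6 arrays.

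The 3 ED arrays shared a scan time with 1 array of another group, ES 15 min after IR, and the 3 EDRL arrays shared another scan time with 1 EDRE array. With scan time as a random block 70 genes were counted higher and 1 lower (limma, adjusted p under 0.05). Because each group lay within 1 scan time, the effects of scan time and of IR cannot be told apart in the 6 arrays themselves. Of the 75 named genes past the adjusted p 24 also passed with the block.

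**Figure D1:**
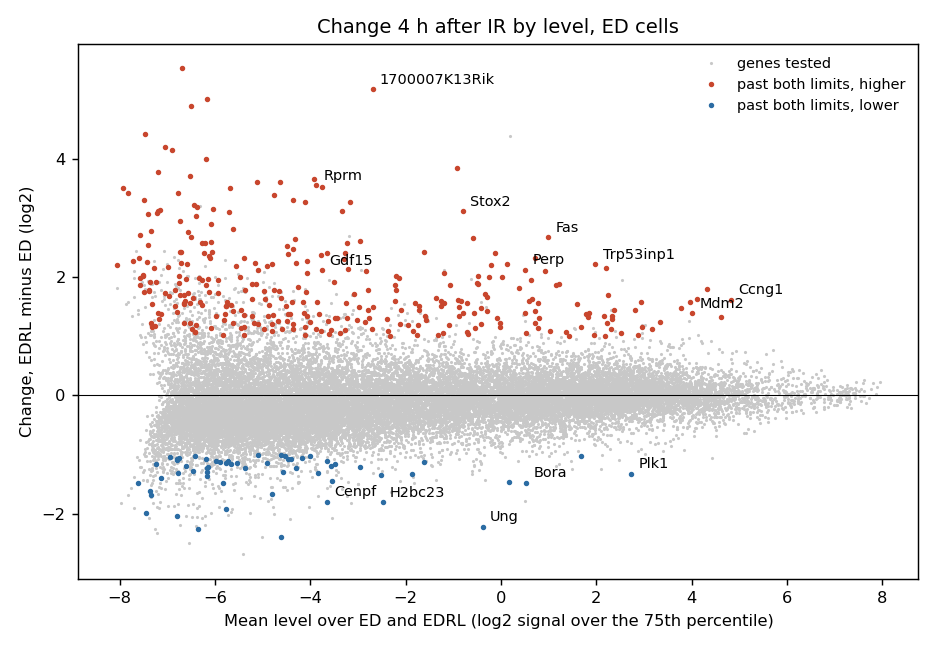
Change 4 h after IR (EDRL minus ED, log2) against the mean level over both groups (log2 signal over the 75th percentile of the array) for the 23257 genes tested, 1 point a gene; red points are the 311 genes counted higher and blue points the 58 counted lower. Most red points lie at low levels, and named p53 targets such as Mdm2 and Ccng1 lie at high levels.

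Of 92 members of 3 lists of p53 targets 90 were on the array and 83 were tested. Of these 83 genes 28 rose (33.7%, beside 1.66% of all genes tested) and 0 fell at the adjusted p (limma; 41 were higher and 0 lower at an unadjusted p under 0.05). The lists and their members were chosen with earlier results of these data known, so such counts are descriptions. The median change of the 83 genes was 0.526, beside -0.0973 for all genes tested, and 68 of 83 changes were above 0. In 51 of the 83 every EDRL value lay above every ED value, beside 14.8% of 23302 probes measured on all 6 arrays. Of the 28 genes 27 were well above background on all 3 ED arrays, with changes from 0.83 for Lif to 3.55 for Rprm, and Tnfrsf18 was so on 0 of them. Whichever array was left out, 20 of the 28 passed. Pidd1 and Cpt1c lost their call in 5 of the 6 such fits, Dapk1 and Pltp in 3 and Btg2 in 2, and Lif and Cgref1 without EDRL replicate 2 (adjusted p = 0.052 and 0.0786). Abhd4 lost its call in 4 of the 5 fits in which it could be tested. With scan time as a random block 9 of the 28 passed, namely Tnfrsf18, Rprm, Fas, Trp53inp1, Perp, Gdf15, Aldh4a1, Ddit4l and Tap1.

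Of the genes for arrest and for feedback on p53 12 of 31 tested rose and 0 fell, with a median change of 0.816. Mdm2, the ubiquitin ligase that degrades p53, was at 3.33, 3.39 and 3.24 in ED and at 4.79, 4.72 and 4.61 in EDRL. The groups did not overlap, and Mdm2 rose by 1.39 ± 0.14 (SE), or 2.61-fold, with a limma adjusted p of 0.00011. Ccng1, cyclin G1, a p53 target that feeds back on Mdm2, was at 4.17, 4.05 and 3.86 in ED and at 5.91, 5.50 and 5.51 in EDRL. It rose by 1.61 ± 0.25 (SE), with a limma adjusted p of 0.0036. Zmat3, an RNA-binding zinc finger protein induced by p53, rose from 3.96 ± 0.28 to 5.28 ± 0.06 (SD, n = 3), and its 3 EDRL values stood above all ED values.

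Rprm encodes Reprimo, a p53-induced protein that holds cells in G2. It was at -5.49, -5.69 and -5.79 in ED and at -2.09, -2.09 and -2.14 in EDRL, a rise of 3.55 ± 0.23 (SE), or 11.7-fold, with a limma adjusted p of 1.04e-06. The EDRL values lay close together and above every ED value. Trp53inp1, a p53-induced nuclear protein that promotes autophagy and cell death, was at 0.93 and 0.81 on the 2 ED arrays with a usable spot and at 3.06, 3.12 and 3.09 in EDRL. Btg2, an antiproliferative cofactor of mRNA deadenylation, rose by 2.18 ± 0.44 (SE, limma adjusted p = 0.014), from values of -6.56, -5.70 and -5.71 to -3.96, -3.96 and -3.50. Its adjusted p was 0.0824 without ED replicate 1 and 0.0748 without EDRL replicate 3. Gdf15, a secreted stress hormone of the TGF-beta family, rose by 2.12 ± 0.14 (SE, limma adjusted p = 1.16e-06), from -4.96, -4.84 and -4.64 to -2.60, -2.70 and -2.78. Ddit4l, an inhibitor of mTOR signaling, rose from -0.99 ± 0.24 to 1.01 ± 0.21 (SD, n = 3), with a limma adjusted p of 7.86e-05. Zfp385a, a cofactor that steers p53 toward arrest genes, rose by 1.33, and Gtse1, which moves p53 out of the nucleus, by 0.89 (limma adjusted p = 0.00715 and 0.00356). Lif and Cpt1c, a brain-enriched carnitine palmitoyltransferase, rose by 0.83 and 0.91.

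Cdkn1a, the cyclin-dependent kinase inhibitor p21 and the best known arrest gene of p53, did not pass. Its values were -0.76, -1.26 and -1.49 in ED and -0.60, -0.82 and -0.37 in EDRL, and the groups overlapped. The change was 0.57 ± 0.29 (SE), with a limma adjusted p of 0.43, and the other probe of the gene gave 0.69, with an adjusted p of 0.303. Gadd45a, a stress sensor of the G2 checkpoint, changed by 0.04 ± 0.30 (SE, adjusted p = 0.98). Phlda3, an inhibitor of Akt, and Trp73, a p53 paralog, had changes of 1.26 and 1.54 and adjusted p of 0.16 and 0.15.

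**Figure D2:**
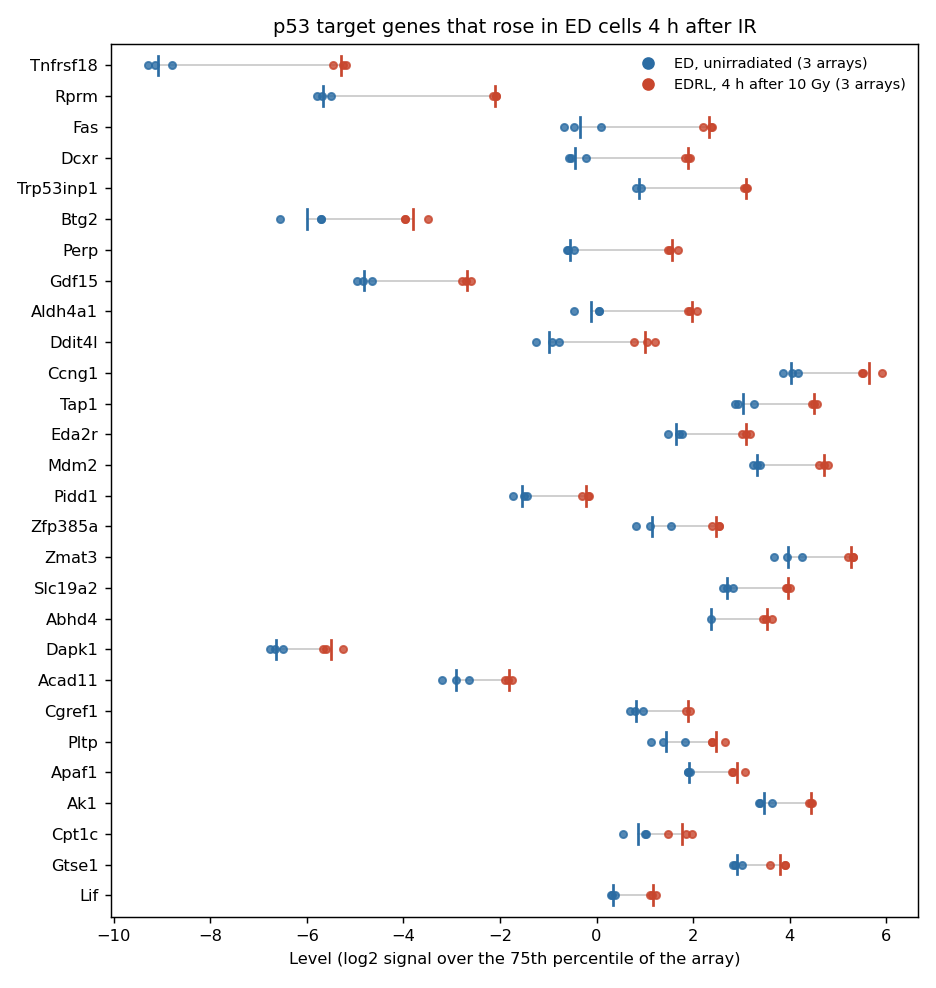
Level (log2 signal over the 75th percentile of the array) of the 28 p53 targets that rose, ordered by their change; each point is 1 array, blue for ED and red for EDRL, and vertical bars are the group means. The genes were chosen for a rise, so the order of the colours is given by the choice; the ED points of Tnfrsf18 are not well above background, and the other 27 means lie 0.83 to 3.55 apart.

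Of the p53 targets for apoptosis 7 of 23 tested rose and 0 fell, with a median change of 0.631. Fas, the death receptor for Fas ligand, was at -0.68, -0.46 and 0.10 in ED and at 2.38, 2.21 and 2.40 in EDRL. It rose by 2.68 ± 0.21 (SE), or 6.39-fold, with a limma adjusted p of 1.16e-05, and its second probe rose by 2.25. Perp, a membrane protein of desmosomes and an apoptosis effector of p53, was at -0.62, -0.58 and -0.47 in ED and at 1.69, 1.53 and 1.48 in EDRL, and rose by 2.12 ± 0.15 (SE). Neither gene had an EDRL value near the ED range. Eda2r, the receptor for ectodysplasin A2, rose by 1.44 ± 0.14 (SE), Apaf1, the scaffold of the apoptosome, by 0.99 ± 0.14 (SE), and Pidd1 and Dapk1, a death domain adaptor and a death-associated kinase, by 1.34 and 1.13 (limma adjusted p = 0.00012, 0.0018, 0.015 and 0.017). Tnfrsf18, a receptor of the TNF family known as GITR, was not well above background on any ED array. It was at -5.19, -5.46 and -5.25 in EDRL, with measured means of -9.08 in ED and -5.30 in EDRL, and was at least 4.42-fold higher in EDRL, against the dimmest signal well above background. It was tested through its EDRL signal alone, and its limma adjusted p of 5.81e-06 uses ED values below background.

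Among BCL2 family members that p53 is known to induce, Bax did not pass, and Bbc3 and Pmaip1 have no test result. Bax, a pore-forming killer of mitochondria, was at 2.80, 3.06 and 3.43 in ED and 4.07, 3.91 and 3.91 in EDRL. These values did not overlap, but the change of 0.86 ± 0.32 (SE) had a limma adjusted p of 0.23. The SE draws on all groups, and the SD of Bax was 0.32 in ED and 0.09 in EDRL, beside 0.70 in EDRE and 0.64 in ESRL. Bbc3 and Pmaip1, which encode the BH3-only proteins Puma and Noxa, were well above background on 2 EDRL arrays and 0 ED arrays each, and were not tested. The levels of Bbc3 in EDRL were -4.86, -9.49 and -4.77, so that 1 array lay at the level of the ED arrays. Those of Pmaip1 were -7.00, -7.38 and -6.94 in EDRL, above -9.22, -9.20 and -8.96 in ED. Of 16 members of the whole BCL2 family tested 0 passed at the limma adjusted p, and 1 was higher and 1 lower at an unadjusted p under 0.05.

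Of the p53 targets for DNA repair and metabolism 9 of 29 tested rose and 0 fell, with a median change of 0.218. Of these 9 genes 0 encode a DNA repair enzyme. Dcxr, a xylulose reductase, rose by 2.32 ± 0.35 (SE), from -0.52, -0.57 and -0.22 to 1.90, 1.93 and 1.82. Aldh4a1, a mitochondrial enzyme of proline breakdown, rose by 2.10 ± 0.21 (SE), from -0.46, 0.05 and 0.05 to 2.09, 1.90 and 1.95. Tap1, the peptide transporter for MHC class I, rose by 1.48, and Slc19a2, a thiamine transporter, by 1.25 (limma adjusted p = 0.00211, 7.49e-05, 0.00062 and 0.000113 in that order). Pltp, a phospholipid transfer protein, Acad11, an acyl-CoA dehydrogenase, and Ak1, an adenylate kinase, rose by 1.02, 1.09 and 0.97, and Cgref1 by 1.07. Abhd4 had a usable spot on 1 ED array, and its adjusted p of 0.033 rests on it. The repair genes of this list, the damage sensors Xpc and Ddb2 and the translesion polymerases Polh and Polk, changed by 0.02, -0.28, 0.01 and 0.30, and none passed. Trp53 itself was measured at 2.24 and 1.18 on 2 ED arrays and at 1.05, 1.01 and 1.01 in EDRL (adjusted p = 0.71), and of 19 genes of p53 and its cofactors tested 1 rose, Ppp1r13l, the inhibitor iASPP, by 0.89 (limma adjusted p = 0.011, and 0.06 and 0.0568 without ED replicate 2 or EDRL replicate 1).

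Of 57 genes of mitosis tested 7 fell (12.3%, beside 0.658% of all genes) and 0 rose, and 50 of the 57 changes were below 0. In fits without 1 of the 6 arrays 2 to 6 of them fell. This list too was chosen with earlier results of these data known, so its count is a description. The median change of the 57 genes was -0.488, beside -0.0973 for all genes tested, and in 43 of the 57 all EDRL values lay below all ED values, beside 29.8% of 23302 probes measured on all 6 arrays. Cenpf, a kinetochore protein, was at -2.51, -2.75 and -2.99 in ED and at -4.62, -4.25 and -4.76 in EDRL. It fell by 1.79 ± 0.24 (SE, limma adjusted p = 0.0015). Plk1, the polo-like kinase that drives entry into mitosis, was at 3.20, 3.27 and 3.69 in ED and at 2.14, 2.05 and 2.01 in EDRL. It fell by 1.32 ± 0.26 (SE, limma adjusted p = 0.015), and its adjusted p was 0.0653, 0.0672 and 0.0656 without ED replicate 3, EDRL replicate 2 or EDRL replicate 3.

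The phosphatases Cdc25c and Cdc25b, which activate Cdk1, changed by -0.95 and -0.81 (limma adjusted p = 0.04 and 0.041), and each lost its call in 5 of the 6 fits without 1 array. Kif22 was at 3.97, 3.81 and 3.84 in ED and at 2.89, 3.01 and 2.91 in EDRL, and fell by 0.93 ± 0.15 (SE, limma adjusted p = 0.0059). Espl1, separase, and Cenpe, a kinetochore motor, fell by 0.78 and 0.77. Bora, which activates Plk1 through Aurora A and stood outside the list, was at 1.44, 1.20 and 1.17 in ED and at -0.18, -0.21 and -0.24 in EDRL, and fell by 1.48 ± 0.16 (SE, limma adjusted p = 0.0005). The EDRL values of Kif22 lay below every ED value, and those of Bora did so by the choice of the largest falls. Ccnb1, cyclin B1, and Mki67, the proliferation marker Ki-67, had changes of -0.56 and -0.80 and limma adjusted p of 0.11 and 0.08. With scan time as a random block 0 of the 7 passed, and with each array set to its median 2 of 57 fell and the median was -0.337, beside 0.0532 for all genes.

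Replication-dependent histone genes had a median change of -0.273, and 3 of 58 tested fell, beside 0.658% of all genes. None of the 3 passed with scan time as a random block (adjusted p = 0.183 for H2bc23 and 1 for H1f4 and H4c11). H2bc23, a histone H2B gene, was at -1.51, -1.62 and -1.60 in ED and at -3.70, -3.09 and -3.34 in EDRL, and fell by 1.80 ± 0.20 (SE, limma adjusted p = 0.00014). H1f4 fell by 0.72 (adjusted p = 0.036), and H4c11, which was not well above background on any EDRL array, was at least 1.502-fold lower there, with measured means of -6.90 and -7.88 (adjusted p = 0.042). Both lost their call whichever of the 6 arrays was left out. The histone messages are near copies of each other, so a probe can also take up those of related genes. Of 44 DNA replication genes tested 0 passed (limma; 5 were lower at an unadjusted p under 0.05), and Pcna, the replication clamp and a marker of S phase, was at 5.70, 5.72 and 5.60 in ED and 5.67, 5.66 and 5.55 in EDRL.

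**Figure D3:**
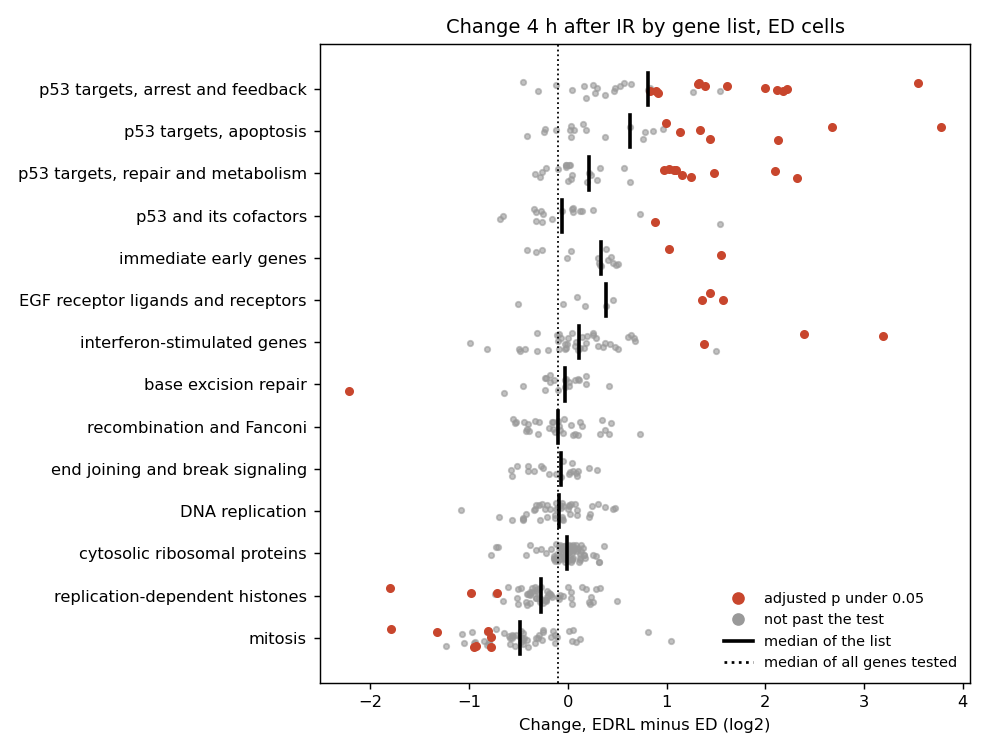
Change 4 h after IR (EDRL minus ED, log2) of each tested member of 14 gene lists; red points passed the adjusted p, grey points did not, black bars are list medians and the dotted line is the median of all genes tested, -0.0973. The 3 lists of p53 targets lie to the right of the dotted line at the median and mitosis lies to the left, at -0.488.

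Of 33 genes of homologous recombination and the Fanconi pathway and of 21 genes of end joining and break signaling tested 0 passed at the adjusted p in either direction (limma; 4 and 5 had an unadjusted p under 0.05), with medians of -0.0972 and -0.067. In base excision repair 1 of 21 fell. This was Ung, the uracil-DNA glycosylase that removes uracil from DNA. Ung was at 0.67, 0.77 and 0.73 in ED and at -1.31, -1.54 and -1.62 in EDRL. It fell by 2.21 ± 0.40 (SE, limma adjusted p = 0.017), and a second probe fell by 2.41 (adjusted p = 0.000641). No value of the groups came within 1 log2 unit of the other group. The first probe had an adjusted p of 0.0505 to 0.0731 when any 1 of the 6 arrays was left out. Pif1, a DNA helicase, fell by 1.46 ± 0.22 (SE, adjusted p = 0.0035), from 0.72, 0.71 and 1.27 to -0.45 and -0.68 on the EDRL arrays with a usable spot, and its adjusted p was 0.056 without EDRL replicate 2.

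**Figure D4:**
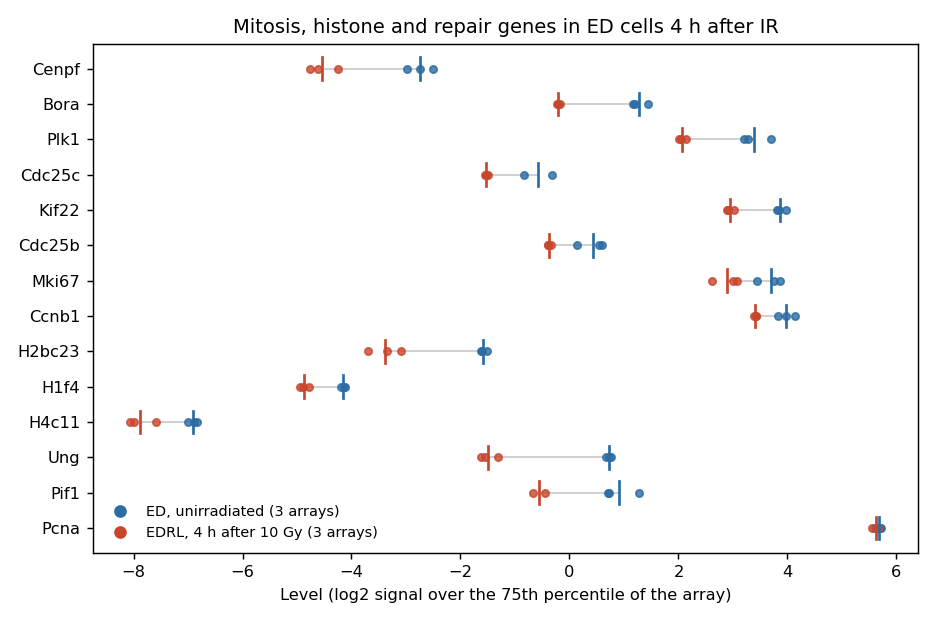
Level (log2 signal over the 75th percentile of the array) of mitosis genes, histone genes, Ung, Pif1 and Pcna; each point is 1 array, blue for ED and red for EDRL, and vertical bars are the group means. Red points lie to the left of the blue points in every row but the last, Pcna, where they overlap. The genes other than Plk1, Mki67, Ccnb1, Ung and Pcna were chosen for a fall, so their order of colours is given by the choice.

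1700007K13Rik had the largest rise of the genes whose probes passed the background limit on each of the 6 arrays. It is listed here with motile cilium genes. Its values were -5.31, -5.20 and -5.33 in ED and -0.20, -0.07 and -0.06 in EDRL, a rise of 5.17 ± 0.42 (SE), or 36.1-fold, with a limma adjusted p of 8.26e-06. Drc7, of the dynein regulatory complex, and Ccno, a cyclin of multiciliated cells, also rose, by 1.63 and 0.87. Of that list 3 of 22 tested genes rose, beside 1.66% of all genes, with a list median of -0.141. The list and its members were chosen with earlier results of these data known, so this count is a description. Drc7 and Ccno did not pass with scan time as a random block (adjusted p = 0.278 and 0.544). Kcnj4, an inwardly rectifying potassium channel, rose by 3.66 ± 0.24 (SE), from -5.99, -5.71 and -5.54 to -2.05, -2.13 and -2.06. Stox2, a storkhead box protein, rose by 3.11 ± 0.31 (SE), from -2.86, -2.26 and -1.94 to 0.89, 0.68 and 0.71, and its second probe rose by 2.69. The EDRL ranges of 1700007K13Rik, Kcnj4 and Stox2 were narrow. That they were clear of the ED ranges is given by the choice of the largest rises. Tmc7, a transmembrane channel-like protein, rose by 3.53, Zfp750, a factor of epidermal differentiation, by 3.31, and Etnk2, an ethanolamine kinase, by 3.27. Cutal rose by 3.39, and the transcripts AK009242, uc007gsy and uc009lqv and the probe for NM_007955, which the gene table used here does not name, by 3.60, 3.27, 3.11 and 3.84. Slc5a11, a sodium-dependent inositol transporter, was not well above background in ED and was at least 6.82-fold higher in EDRL, with measured means of -8.38 and -4.67. It too was tested through its EDRL signal alone, and its limma adjusted p of 6.65e-06 uses ED values below background. All 12 of the largest rises passed whichever array was left out and with scan time as a random block. They were chosen as the largest changes past the adjusted p in these same arrays, so this is a description. The block cannot separate scan time from IR for them.

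In ES cells, given as a description, 1700007K13Rik was at 0.40 ± 0.11, Rprm at -0.81 ± 0.08 and Kcnj4 at -1.65 ± 0.09 (SD, n = 3). All 12 of the largest rises stood higher in unirradiated ES than in unirradiated ED cells. Of 19 pluripotency genes tested 0 passed (limma; 3 were lower at an unadjusted p under 0.05), their summed level was 2.94 to 3.06 in ED and 3.04 to 3.21 in EDRL, and Pou5f1 was at -3.81, -3.78 and -3.47 in EDRL, beside -3.50, -3.65 and -3.62 in ED.

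The 12 largest falls included Ung, Cenpf, H2bc23, Bora and Pif1, described above. Wdr20rt, a retrogene, was at -3.24, -3.69 and -3.35 in ED and at -6.62, -6.63 and -4.21 in EDRL, so 1 EDRL array lay far from the other 2, and its adjusted p was 0.042. AB047759 fell by 1.91, Rpl32l by 1.67, Fa2h, a fatty acid hydroxylase, by 1.48, Gcgr, the glucagon receptor, by 1.44, Miip by 1.34 and Tro, trophinin, by 1.33. Fa2h lost its call whichever array was left out, Wdr20rt in 5 of the 6 fits, Gcgr without ED replicate 2 or EDRL replicate 1 (adjusted p = 0.0536 and 0.0504) and Tro without ED replicate 1 (adjusted p = 0.0526). Of the 12 largest falls 6 passed in every such fit, and 0 passed with scan time as a random block.

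Of 17 immediate early genes tested, the first transcripts after a stimulus, 2 rose, beside 1.66% of all genes, with a list median of 0.338. Neither passed with scan time as a random block (adjusted p = 0.0573 for Fos and 0.786 for Egr2). Fos, a subunit of the AP-1 factor, was at -1.49, -1.55 and -1.41 in ED and at 0.08, 0.05 and 0.09 in EDRL, a rise of 1.55 ± 0.25 (SE, limma adjusted p = 0.0034). At 15 min its change was 1.73, in a comparison that shares the ED arrays. Egr2 rose by 1.03 ± 0.17 (SE) at 4 h. Egr1 was at 0.81, 0.54 and 0.21 in ED and 0.93, 0.98 and 1.12 in EDRL, a change of 0.49 with an adjusted p of 0.38, and its change at 15 min was 1.68. Atf3 changed by 0.46 (adjusted p = 0.21). At 15 min 2 of the 3 EDRE arrays were dim, with 75th percentiles of 875 and 1155 beside 2912 to 4268 on the ED and EDRL arrays, and 24.4% and 23.8% of their spots were outliers.

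Of the 28 p53 targets that rose at 4 h 27 were tested at 15 min, against the same ED arrays, and 5 passed there as higher, beside 3.54% of 22454 genes tested at 15 min. Actb and Gapdh had changes of 1.04 and 1.03 at 15 min, and neither passed (adjusted p = 0.0914 and 0.0641). The 5 were Btg2, Trp53inp1, Rprm and Zfp385a, with changes of 1.87, 1.17, 0.99 and 0.93 at 15 min beside 2.18, 2.22, 3.55 and 1.33 at 4 h, and Ddit4l, with a change of 1.55 at 15 min. Gdf15 changed by -0.33, Fas by 0.12, Perp by 0.22 and Mdm2 by 0.53 at 15 min, beside 2.12, 2.68, 2.12 and 1.39 at 4 h. Fas and Mdm2 each rested on 1 EDRE array at 15 min.

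Ligands and receptors of the EGF family rose in part, with 3 of 9 tested past the adjusted p, beside 1.66% of all genes, and a median of 0.386. Nrg1, neuregulin 1, a ligand of ErbB receptors, was at -2.44, -2.56 and -2.73 in ED and at -1.03, -1.01 and -0.99 in EDRL, and rose by 1.57 ± 0.20 (SE, limma adjusted p = 0.00043). Nrg1 passed with scan time as a random block (adjusted p = 0.0152), and Areg and Egfr did not (adjusted p = 0.454 and 0.343). Areg, amphiregulin, rose by 1.44 ± 0.27 (SE), from -3.93, -3.65 and -2.91 to -1.96, -2.10 and -2.13, and its adjusted p was 0.0576 without ED replicate 1 and 0.0559 without ED replicate 2. Egfr itself rose by 1.36 at its brighter probe (adjusted p = 0.0062), while its other probe changed by -0.27 (adjusted p = 0.667). In ED these probes stood at -6.08 and -6.07. Brightness is the mean over the 6 arrays, so the EDRL values decided which probe was used, and the count of 3 of 9 rests on that. Ereg, epiregulin, was brighter, at 3.38, 3.48 and 3.47 in ED and 4.01, 3.88 and 3.81 in EDRL, and its change of 0.45 did not pass (adjusted p = 0.28).

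Among interferon-stimulated genes 3 of 44 tested rose, beside 1.66% of all genes, all of them members of the Oas1 family of oligoadenylate synthetases, which lie in 1 gene cluster. Oas1e, Oas1f and Oas1d rose by 3.19, 2.40 and 1.38 (limma adjusted p = 0.00014, 0.00034 and 0.018). Oas1f was at -5.39, -6.01 and -5.59 in ED and at -3.19, -3.27 and -3.34 in EDRL. Oas1e was well above background on 1 ED array, Oas1d had 2 usable ED spots, Oas1d lost its call in 5 of the 6 fits without 1 array, and the copies are alike enough that a probe may take up several. Oas1a changed by 0.43, Isg15 by -0.03 and Ifit1 by 0.20, and none of these passed. Oas1e passed with scan time as a random block (adjusted p = 0.028), and Oas1f and Oas1d did not (adjusted p = 0.208 and 0.799). Under normexp background correction the changes of the 3 genes lost their calls. The list median was 0.111. Of 30 NF-kB targets, cytokines and chemokines tested 2 rose, beside 1.66% of all genes, Ccl21c by 1.75 (limma adjusted p = 0.0043) and Lif. Neither passed with scan time as a random block (adjusted p = 0.729 for Ccl21c and 0.748 for Lif).

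PP2A and Akt signaling bear on the study's own question, but the arrays read only RNA. The paper measured PP2A as protein and Akt by its phosphorylation, after a lower dose. Its immunoblots of ED cells showed a gradual rise of PP2A, highest at 4 h. The RNA values below do not measure these. Of 22 PP2A subunits and 22 Akt and PI3K genes tested 0 passed at the limma adjusted p, and 1 and 2 had an unadjusted p under 0.05. Ppp2ca, the alpha catalytic subunit of the phosphatase PP2A, was at 3.21, 3.31 and 3.52 in ED and at 3.04, 3.28 and 3.40 in EDRL, and the groups overlapped (change -0.11 ± 0.28, SE, adjusted p = 0.91). Ppp2cb, the beta catalytic subunit, changed by 0.19 ± 0.18 (SE, adjusted p = 0.71), Akt1 by 0.01 and Bcl2 by -0.24. Of 77 cytosolic ribosomal protein genes tested 0 passed (limma; 2 were lower at an unadjusted p under 0.05), with a median of -0.00586. Actb and Gapdh, which are often used as references, changed by -0.14 and -0.16.

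Of 16 mesenchymal, 7 epithelial, 3 hematopoietic and 9 neural markers tested 0 passed (limma; 1, 0, 1 and 1 had an unadjusted p under 0.05). The summed level of the 3 hematopoietic markers, Spi1, Cd14 and Hba-a1, was 0.798 to 0.922 in ED and 1.13 to 1.45 in EDRL, without overlap, while the defining markers Ptprc, Itgam, Aif1 and Gata1 were not well above background on any of the 6 arrays. The part of such cells in other results was not tested. Among 5 endothelial markers tested 1 rose, Tek, the angiopoietin receptor Tie2, from -4.83, -4.40 and -4.30 to -1.53, -2.16 and -2.11, by 2.58 ± 0.21 (SE, limma adjusted p = 5.96e-06). The other tested endothelial genes, Cdh5, Kdr, Eng and Tie1, changed by -0.40, -0.02, 0.63 and 0.98, and none passed. The summed level of these 4 genes was -3.76 to -3.19 in ED and -3.50 to -3.14 in EDRL, and the ranges overlapped; with Tek the sums were -3.01 to -2.79 and -1.64 to -1.12. Myh6, a cardiac myosin, rose by 1.72, as 1 of 9 endoderm and muscle markers tested. The counts of 1 of 5 and 1 of 9 stand beside 1.66% of all genes tested that rose. Notch1 rose by 1.32 and Hes6 by 1.04 (adjusted p = 0.014 and 0.047) among 15 Notch, Wnt and TGF-beta feedback targets tested, beside 1.66% of all genes. Hes6 lost its call whichever array was left out. With scan time as a random block Tek passed (limma adjusted p = 0.00217). Myh6, Notch1 and Hes6 did not (adjusted p = 0.505, 0.198 and 0.748). The 3 EDRL values of Notch1, 1.41, 1.59 and 1.38, lay above those of ED, -0.18, 0.09 and 0.51, and its adjusted p was 0.0764, 0.0641 and 0.0761 without ED replicate 1, ED replicate 2 or EDRL replicate 2.

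The change at 4 h was set against that in ES cells by the interaction of IR and cell type, which passed the adjusted p in 228 of 26021 genes tested with a larger change in ED (0.876%) and in 66 with a lower one (0.254%). The named genes were chosen for their change in ED, which enters this difference, so their count is not read as a result. Of the 28 p53 targets that rose in ED it passed for 5, Rprm, Fas, Perp, Gdf15 and Aldh4a1. In ES cells 26 of the 28 had a change above 0 and 14 passed the adjusted p there as higher, beside 1.67% of 25625 genes tested. The 3 ES arrays shared 1 scan time that no ESRL array had, so scan time and IR cannot be told apart in ES cells either. ESRL replicate 1 was also dim, with a 75th percentile of 1952 and 63.3% of its probes well above background. Fas changed by 2.68 in ED and 0.71 in ES cells, with a difference of 1.96 ± 0.30 (SE, limma adjusted p = 0.0084). Perp changed by 2.12 and 0.50, with a difference of 1.62 ± 0.22 (SE, adjusted p = 0.0034). Before IR the means of Rprm, Perp, Gdf15 and Aldh4a1 were -5.66, -0.56, -4.81 and -0.12 in ED. In ES cells they were higher, at -0.81, 4.11, -0.67 and 2.79. Fas stood higher in ED, at -0.35 beside -1.24 in ES cells. Whether the level before IR bears on these differences was not tested. For Mdm2 the changes were 1.39 and 0.87, and the difference of 0.52 did not pass (adjusted p = 0.25), nor did that of Trp53inp1, 1.07 (adjusted p = 0.16). Cenpf fell by 1.79 in ED and its change was -0.10 in ES cells, a difference of -1.70 ± 0.35 (SE, adjusted p = 0.041), whereas for Plk1 the difference of -0.99 had an adjusted p of 0.23 and for Ung that of -2.10 one of 0.2. With scan time as a random block no difference of a named gene passed.

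**Figure D5:**
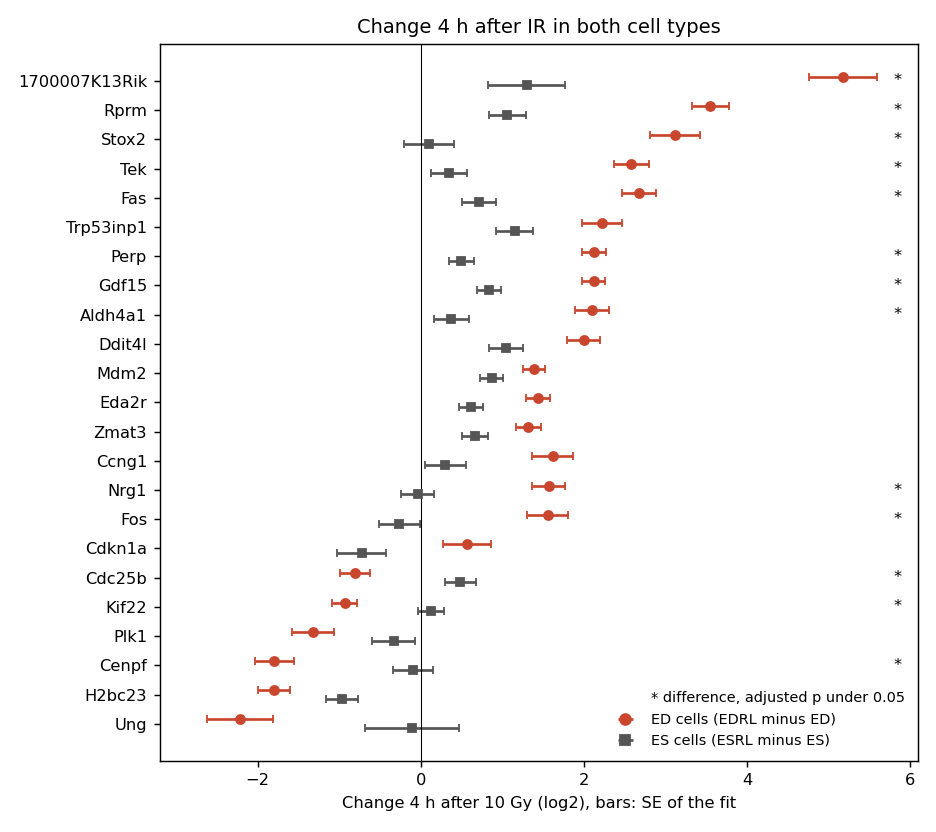
Change 4 h after 10 Gy (log2, bars are the SE of the fit) in ED cells (red circles) and ES cells (grey squares) for 23 named genes; an asterisk marks genes whose difference between the cell types passed the adjusted p. For 1700007K13Rik the change was 5.17 in ED and 1.30 in ES cells, and for Mdm2, without an asterisk, 1.39 and 0.87.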

How the data were processed

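RNA of 18 samples in 6 groups of 3 was labelled with Cy3 and hybridized to 1-colour Agilent mouse arrays, 1 array a sample. The authors deposited Feature Extraction output, whose intensity column used here is the background-subtracted processed signal (version 9.1 in the submitters' processing notes, 10.7.3.1 in the file headers), and a table of log2 values that the authors deposited for the same arrays, close to the log2 signal, floored at 5, minus about the array median. Control spots and outlier spots were left out here, log2 signals were set to the 75th percentile of each array, and spots of a probe were averaged. A probe was tested where, on each of the 3 ED arrays or each of the 3 EDRL arrays, at least 50% of its spots passed the scanner software's flag for signal well above background, and a gene was read from its brightest tested probe. All 18 arrays were fitted with limma 3.58.1 in R 4.3.3 (lmFit, eBayes), with Benjamini-Hochberg adjustment over all 25471 probes tested. "Rose", "fell" and "passed" mean an adjusted p under 0.05, and "counted" also a change over 2-fold. A bound ("at least") uses, per array, the higher of the probe's own signal and the lowest signal well above background. Of the probes, 22216 of 37246 were named through RefSeq, and the others keep the name in the file.

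Named were the 12 largest rises and the 12 largest falls among counted genes well above background on all 6 arrays and without overlap, of every list the members that passed (up to the 5 largest changes, and all p53 targets), and a fixed set of genes such as Cdkn1a, Bax and Pcna. Espl1, Cenpe, Phlda3, Trp73, Xpc, Ddb2, Polh, Polk, Oas1a, Isg15, Ifit1, Cdh5, Kdr, Eng, Tie1, Spi1, Cd14, Hba-a1, Ptprc, Itgam, Aif1 and Gata1 fall outside this rule and were chosen after their values were seen. The members and lists were chosen with earlier results of these data known. Alternatives were another scaling, background correction, filter, set of arrays, block, weights, the methods' t-test, the authors' table and leaving out each array. The number of arrays limits the precision. The fit was tested on simulated data.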

Additional observations from a re-analysis of the deposited data

Results flagged for a closer look

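For 27 of the named genes the change 4 h after IR differed between ED and ES cells by limma's interaction term (adjusted p under 0.05), out of 73 named genes in which it was tested. The named genes were chosen for a change in ED, which enters this difference, so the count is a description. Differences below are the change in ED minus that in ES, on the log2 scale.

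The differences of the genes with the largest rises were 3.87 for 1700007K13Rik, 3.06 for Tmc7, 3.01 for Stox2, 2.78 for Etnk2, 2.70 for AK009242, 2.60 for uc009lqv, 2.59 for uc007gsy, 2.52 for NM_007955, 2.49 for Rprm, 2.40 for Cutal, 2.38 for Kcnj4 and 2.11 for Zfp750. Stox2 changed by 3.11 in ED and 0.10 in ES cells, Tmc7 by 3.53 and 0.47, and NM_007955 by 3.84 and 1.32. All 12 of these genes stood higher in ES than in ED cells before IR. Among the other p53 targets the difference was 1.96 for Fas, 1.72 for Aldh4a1, 1.62 for Perp and 1.28 for Gdf15. Among receptors, ligands, transporters and other list members it was 3.56 for Oas1e, 2.81 for Slc5a11, 2.23 for Tek, 1.82 for Fos, 1.73 for Drc7 and 1.61 for Nrg1. Slc5a11 was well above background on 0 and Oas1e on 1 of the 3 ED arrays, so their differences rest on ED values below background and are no exact sizes. Oas1e, Fos and Nrg1 rose in ED, and their changes in ES were -0.37, -0.26 and -0.04. Genes that fell in ED had differences of -1.90 for Gcgr, -1.70 for Cenpf, -1.67 for Rpl32l, -1.29 for Cdc25b and -1.05 for Kif22.

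With scan time as a random block 0 of these differences passed. Groups of 3 arrays were not searched for outlying values.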

How the results depend on the processing

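Each setting is set beside 311 genes counted higher and 58 lower, 386 higher and 153 lower past the adjusted p alone, 28 p53 targets that rose, 7 mitosis genes that fell and 27 named genes whose change differed between the cell types. The 75 named genes past the adjusted p kept their direction wherever they were tested, except that the change of H4c11 was 0.01307 under normexp background correction. The cause of the moves below was not tested unless the setting itself removes arrays. Setting each array to its median gave 29 counted lower, 59 lower past the adjusted p and 2 mitosis genes. Quantile normalization gave 26 counted lower and 11 mitosis genes. Normexp gave 130 counted higher and 8 lower, 185 and 22 past the adjusted p, 2 mitosis genes and 5 differences. Keeping outlier spots gave 78 lower past the adjusted p and 3 mitosis genes, no filter on background 77 and 3, and probes well above background on all 6 arrays 36 counted lower. The fit of the 6 ED and EDRL arrays alone gave 553 counted higher and 247 lower, 1418 and 2939 past the adjusted p and 27 mitosis genes. Leaving out EDRE arrays 2 and 3 gave 115 counted lower, 784 higher and 674 lower past the adjusted p, 19 mitosis genes and 47 differences. Array weights gave 740 counted higher and 445 lower, 2646 and 4440 past the adjusted p, 46 p53 targets, 37 mitosis genes and 70 differences. The methods' t-test gave at their threshold, before adjustment, 561 counted higher and 268 lower, 2372 and 4933 past the p alone and 34 mitosis genes, and after Benjamini-Hochberg adjustment 139 counted lower, 897 higher and 1830 lower past the adjusted p and 15 mitosis genes. The authors' value table gave 20 counted lower, 32 lower past the adjusted p and 1 mitosis gene. With scan time as a random block 70 were counted higher and 1 lower, and the same numbers passed the adjusted p alone. In that fit 9 p53 targets, 0 mitosis genes and 0 differences passed. An unadjusted limma p under 0.05 was found there for 1236 of 25471 probes, beside 1274 that chance gives, so small p-values were not in excess over all probes. Samples with the same replicate number did not deviate together (r = -0.199, -0.157 and 0.0724 over probes), so the numbers were not taken as pairs; with the replicate block 281 were counted higher and 42 lower, 99 were lower past the adjusted p and 4 mitosis genes fell. Without any 1 of the 6 arrays 214 to 282 were counted higher and 15 to 64 lower, 236 to 333 and 31 to 99 passed the adjusted p, 22 to 25 p53 targets rose, 2 to 6 mitosis genes fell and 18 to 23 differences passed. Dim probes limit what the arrays show, since 47 of the genes counted higher were not well above background on any ED array.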
